A study of Mus musculus with 16 samples.

Results

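The genes described here encode the proteins of the mitochondrial ribosome, measured in mouse liver on Affymetrix whole-transcript gene arrays. A gene was taken if its platform symbol began with Mrpl or Mrps followed by a number and if it had a probe set naming that gene and no other. This gave 77 genes, 48 named Mrpl for the large subunit and 29 named Mrps for the small subunit, of 19938 genes with such probe sets. All 77 passed the filter on low signal, which left 13152 genes in all. Where a gene had more than 1 probe set, the one with the highest mean signal was used.

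The livers came from 4 genotypes of mouse strain 129, with 4 arrays each and 16 in all. They were Rassf1a-/- livers, which lack Rassf1a, Sav1+/- livers, which carry 1 intact copy of Sav1, Rassf1a-/- Sav1+/- livers, which combine both, and wild-type livers. Rassf1a and Sav1 are adaptor proteins of the Hippo kinase pathway and are studied as tumour suppressors. The labels give no age, sex or time of day and do not say that the arrays of a genotype stand for separate animals, so p-values measure only how far these samples spread, which may be technical. All values are log2 signals, in which a difference of 1 is a doubling, and an array's median over its probe sets lay between 7.2 and 7.51. The probe set level of one gene is not set against that of another, because probe sets differ in brightness for the same amount of RNA.

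Mitochondria carry their own small genome, and the messages made from it are translated inside the organelle by a ribosome of its own. The RNA of that ribosome is encoded by mitochondrial DNA, whereas its proteins are encoded in the nucleus, made in the cytosol and imported. Its only products are subunits of the respiratory chain and of ATP synthase, and liver cells, which are rich in mitochondria, use it throughout life. Some of its proteins have bacterial homologues, and others were gained in the evolution of the organelle.

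The promoters of these genes were compared in sequence before the levels are given. RefSeq (build GRCm38.p6) supplied a window of 250 bases before to 50 bases after the gene start for 68 of the 77 genes, matched by gene ID. Each was searched on both strands for the site of nuclear respiratory factor 1 (NRF1), GCGC and TGCGC with 1 base of any kind between them, for CCGGAAG, a site of ETS factors such as GABP, and for AAGATGGCG, the site of YY1. These factors are known in mammals to bind promoters of nuclear genes for mitochondrial proteins, and none of these 3 motifs holds another. The NRF1 letters occurred in 13 of the 68 promoters (19.1%), against 9.98% of the 10397 tested genes with a promoter and 5.19% of the 27025 genes of the RefSeq table. The ETS letters occurred in 36.8% of the mitoribosomal promoters, 17.1% of those of tested genes and 9.93% of all. The YY1 letters occurred in 11.8%, 3.03% and 1.64% in the same order, and the clock factors' E-box CACGTG in 7.35%, 11.3% and 8.09%. At least 1 of the NRF1, ETS and YY1 motifs was found in 40 of the 68 (58.8%), against 26.8% of tested genes and 15.1% of all. The median GC content was 58.2% in the mitoribosomal windows, against 61.0% for tested genes and 53.3% for all genes.

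The 250 bases before the start are shown for 4 genes named in the results below, on the plus strand and 5′ to 3′, with NRF1 and ETS matches in capitals. Mrpl12 (chr11:120484387-120484636) was the only member called lower in the double genotype. Mrps27 (chr13:99344536-99344785) was the only member called higher for averaged Rassf1a loss. Both calls were lost under some alternative settings. Mrpl45 (chr11:97315466-97315715) had the smallest p-value for Sav1 copy loss, and Mrpl28 (chr17:26123253-26123502) stood among the lowest in the double genotype and held none of the motifs.
Mrpl12: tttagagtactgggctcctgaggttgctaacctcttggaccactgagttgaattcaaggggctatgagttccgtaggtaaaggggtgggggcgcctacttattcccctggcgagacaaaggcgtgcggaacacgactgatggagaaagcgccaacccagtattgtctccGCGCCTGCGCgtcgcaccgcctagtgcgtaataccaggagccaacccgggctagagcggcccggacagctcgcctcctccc
Mrps27: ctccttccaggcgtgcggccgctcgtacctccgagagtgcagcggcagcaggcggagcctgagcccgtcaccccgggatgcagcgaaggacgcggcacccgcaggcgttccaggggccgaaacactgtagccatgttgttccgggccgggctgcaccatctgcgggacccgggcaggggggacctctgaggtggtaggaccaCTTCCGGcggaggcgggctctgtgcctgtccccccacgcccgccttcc
Mrpl45: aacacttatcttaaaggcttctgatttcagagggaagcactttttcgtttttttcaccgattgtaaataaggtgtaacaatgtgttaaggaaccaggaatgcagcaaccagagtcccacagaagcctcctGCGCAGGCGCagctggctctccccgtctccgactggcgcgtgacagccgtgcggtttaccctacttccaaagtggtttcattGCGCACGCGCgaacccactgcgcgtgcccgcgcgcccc
Mrpl28: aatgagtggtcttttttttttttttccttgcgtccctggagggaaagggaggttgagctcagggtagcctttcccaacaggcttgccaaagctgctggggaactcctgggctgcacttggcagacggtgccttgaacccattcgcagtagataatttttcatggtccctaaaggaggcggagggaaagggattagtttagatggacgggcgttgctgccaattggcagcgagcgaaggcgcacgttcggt
The Mrpl12 window held 1 NRF1 match, whose first base lay 81 bases before the start. Mrps27 held an ETS match 48 bases before the start and a YY1 match just after it, beyond the bases shown. Mrpl45 held 3 NRF1 matches, 2 of them among the bases shown. A match describes the letters and says nothing of binding in these livers.

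Over the 77 genes, signal was highest in Rassf1a-/- livers and lowest in livers with 1 copy of Sav1. The mean over the genes was 9.87, 10.03, 9.89 and 9.97 in the 4 Rassf1a-/- arrays. It was 9.70, 9.57, 9.62 and 9.77 in Sav1+/- arrays and 9.58, 9.48, 9.62 and 9.78 in Rassf1a-/- Sav1+/- arrays. The 4 wild-type arrays had 9.82, 9.89, 9.76 and 9.77. The genotype means were thus 9.94 ± 0.07, 9.67 ± 0.08, 9.62 ± 0.12 and 9.81 ± 0.06 in the same order (SD, n = 4 each). Of the 4 Rassf1a-/- arrays, 3 lay above every wild-type array, and of the 8 arrays with 1 Sav1 copy, 6 lay below every array with both copies. The mean over all 13152 genes was 9.03 in Rassf1a-/-, 9.0 in Sav1+/-, 9.07 in Rassf1a-/- Sav1+/- and 9.03 in wild-type livers. In whole liver, fewer cells rich in these transcripts and less of the RNA per cell cannot be told apart.

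**Figure D1:**
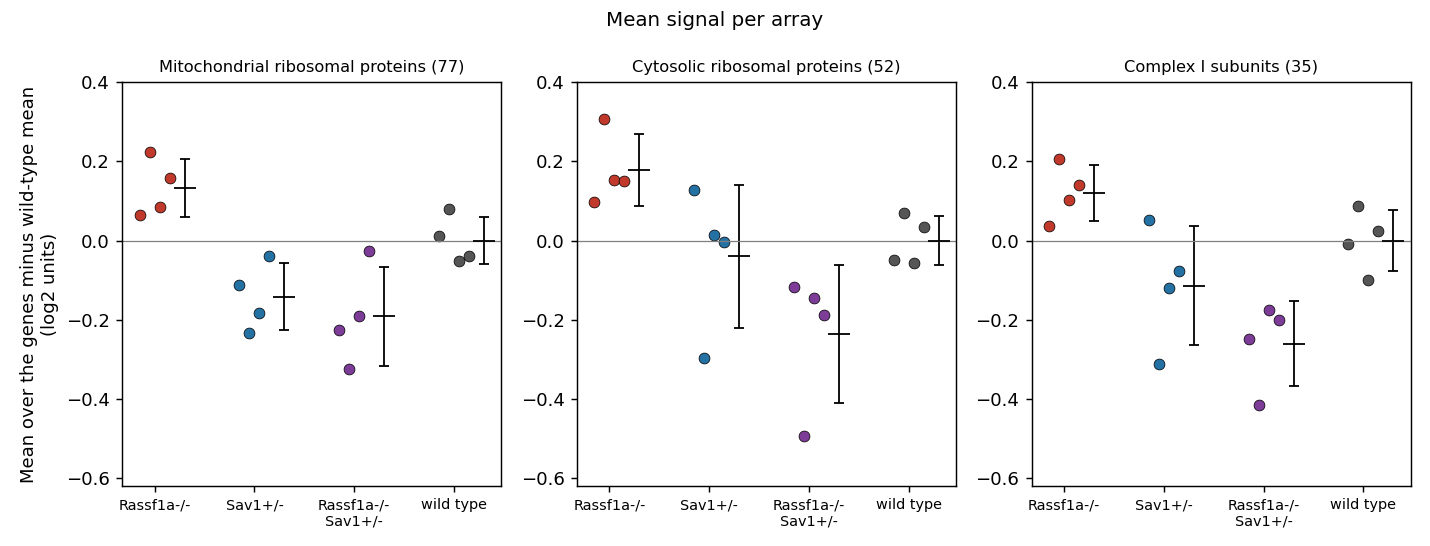
Mean signal over the mitochondrial ribosomal protein genes, and for comparison over cytosolic ribosomal protein and complex I genes, on each array, as the difference from the mean of the wild-type arrays in log2 units. Points are arrays and bars show the mean ± SD of 4 arrays. The Rassf1a-/- arrays lie above 0 in all 3 panels, and all 4 Rassf1a-/- Sav1+/- arrays lie below 0.

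The order of genotypes was much the same gene by gene. Rassf1a-/- livers had the highest of the 4 genotype means in 56 of the 77 genes and the lowest in 0. Sav1+/- livers were highest in 1 gene and lowest in 33, and Rassf1a-/- Sav1+/- livers were highest in 6 and lowest in 42. Wild-type livers were highest in 14 and lowest in 2. The genes are not independent of each other, since all were read from the same arrays. The spread between arrays of a genotype (pooled SD) ran from 0.0820 for Mrpl39 to 0.481 for Mrps36, with a median of 0.178, so that most differences below are near the size of this spread. Mrps36 is named as a small subunit protein and is now known as a subunit of the 2-oxoglutarate dehydrogenase complex.

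**Figure D2:**
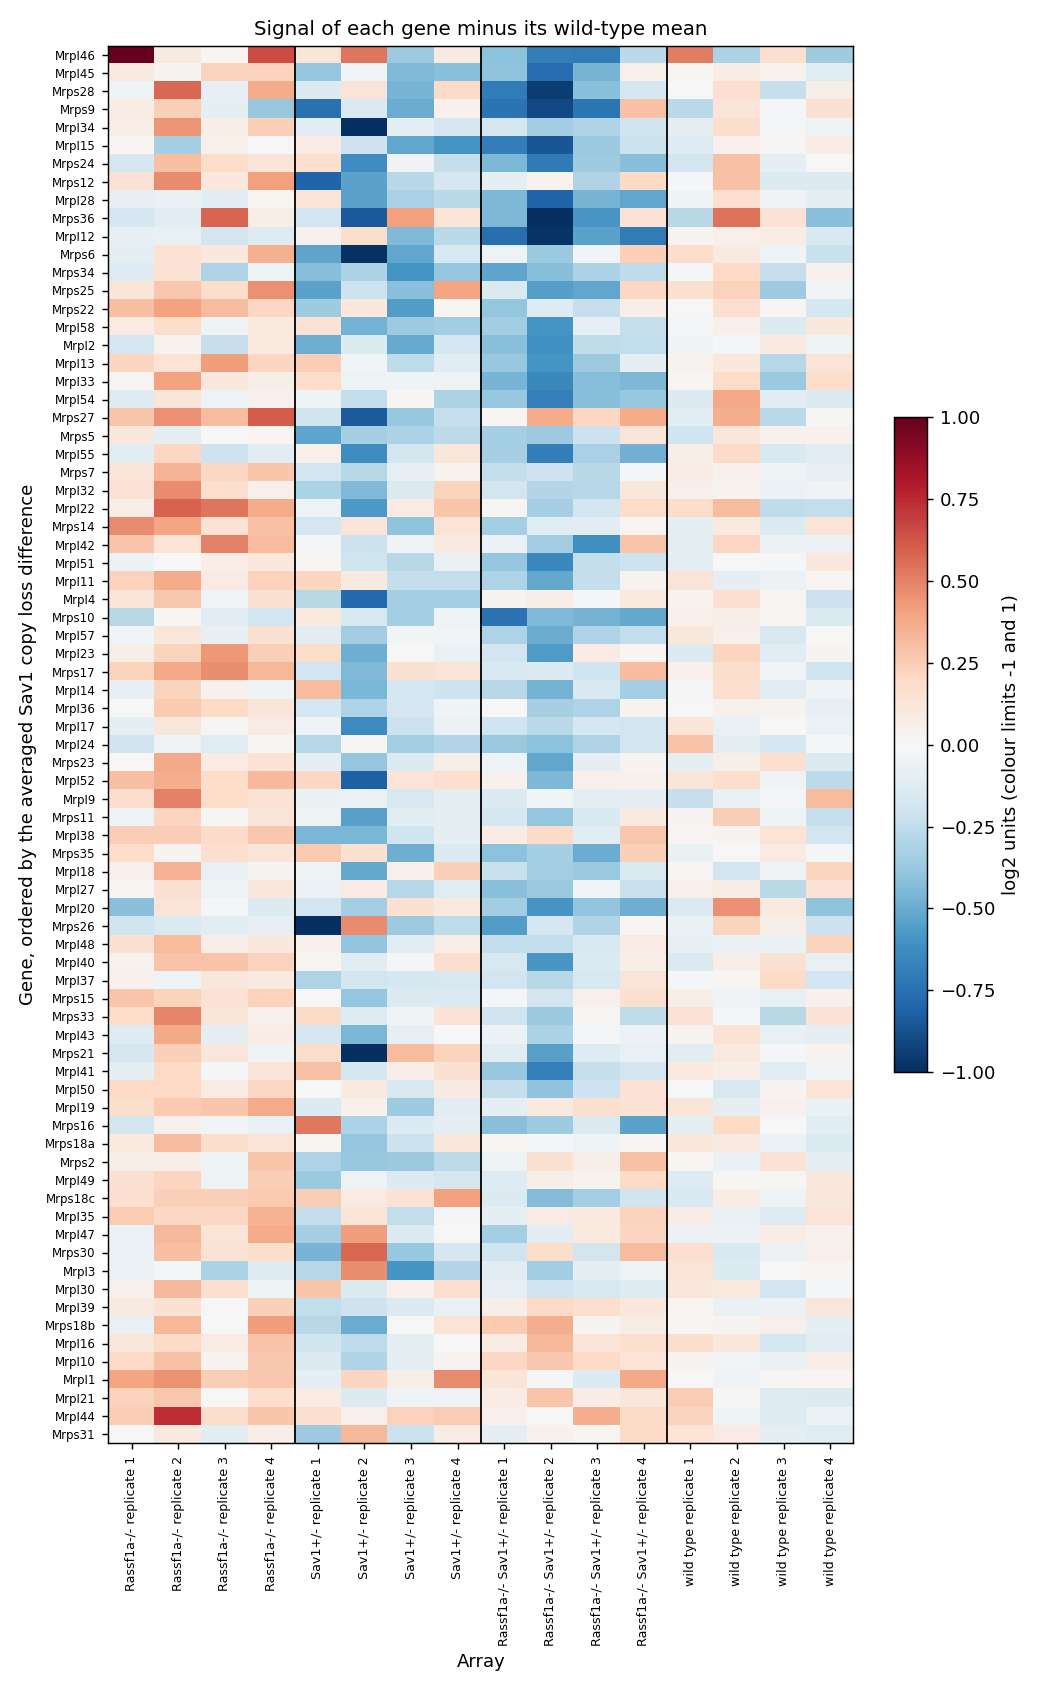
Signal of each of the 77 genes on each array minus the mean of the gene's wild-type arrays, in log2 units, with genes ordered by the averaged difference for Sav1 copy loss (lowest at the top) and arrays grouped by genotype. Red is above and blue below the wild-type mean. Red prevails in the Rassf1a-/- columns, and blue prevails in the columns with 1 copy of Sav1.

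In Rassf1a-/- against wild-type livers, 63 of the 77 genes had a positive difference, against 48.3% of all genes, with a median of 0.14 against -0.01 over all genes tested, but no single gene passed the test. In limma, with Benjamini-Hochberg adjustment over all genes tested, 0 members were called at an adjusted p under 0.05, against 0.7% of all genes. At an unadjusted p under 0.05, 7 members were higher and 0 lower, against 6.33% and 4.1% of all genes. Without overlap between the groups, 12 members were higher and 0 lower, against 6.55% and 4.32% of all genes. These 12 were Mrpl1, Mrpl13, Mrpl19, Mrpl35, Mrpl38, Mrpl52, Mrps7, Mrps14, Mrps15, Mrps17, Mrps18c and Mrps22.

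The largest positive difference in Rassf1a-/- livers was that of Mrpl46, a protein of the central protuberance of the large subunit. It measured 9.76, 8.84, 8.77 and 9.40 in Rassf1a-/- livers, against 9.27, 8.44, 8.91 and 8.39 in wild-type livers, a difference of 0.44 ± 0.24 (SE, adjusted p = 0.555). The groups overlap, and replicates 1 and 4 of Rassf1a-/- carry the difference. Mrps27, a small subunit protein with pentatricopeptide repeats, differed by 0.41 ± 0.17 (adjusted p = 0.367), and Mrpl22, which lines the exit tunnel for the new protein, by 0.39 ± 0.19 (adjusted p = 0.499). Mrpl1, whose bacterial homologue forms the stalk where spent tRNA leaves, measured 9.53, 9.59, 9.38 and 9.41 in Rassf1a-/- livers, against 9.13, 9.10, 9.15 and 9.16 in wild-type livers. All 4 Rassf1a-/- values lie above all 4 wild-type values, yet the fitted difference of 0.34 ± 0.14 did not pass the test (adjusted p = 0.382). At the other end, Mrps10 differed by -0.14 ± 0.12, Mrps26 by -0.14 ± 0.22 and Mrpl3 by -0.13 ± 0.18, with adjusted p from 0.690 to 0.826.

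In Sav1+/- against wild-type livers, 67 of the 77 genes had a negative difference, against 54.1% of all genes, with a median of -0.13 against -0.02 over all genes. None was called, in limma as above, and 0% of all genes were. At an unadjusted p under 0.05, 9 members were lower and 0 higher, against 7.47% and 1.69% of all genes. The groups did not overlap for 6 members, all lower in Sav1+/- (Mrpl2, Mrpl4, Mrps2, Mrps5, Mrps12 and Mrps34), against 4.24% of all genes.

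The lowest differences in Sav1+/- livers were those of 3 small subunit proteins. Mrps6 measured 8.71, 8.26, 8.72 and 9.08 in Sav1+/- livers, against 9.42, 9.33, 9.20 and 9.02 in wild-type livers, a difference of -0.55 ± 0.17 (adjusted p = 0.306). Sav1+/- replicate 4 lies within the wild-type range and the other 3 lie below it. Mrps12, the homologue of the bacterial decoding-centre protein S12, measured 7.02, 7.29, 7.55 and 7.66 in Sav1+/- livers, against 7.81, 8.12, 7.69 and 7.69 in wild-type livers. All 4 Sav1+/- values lie below all wild-type values, by a narrow gap, and the difference was -0.45 ± 0.16 (adjusted p = 0.378). Mrps34, a small subunit protein without a bacterial homologue, measured 9.08, 9.19, 8.91 and 9.12 in Sav1+/- livers, against 9.49, 9.70, 9.27 and 9.56 in wild-type livers. These groups do not overlap either, and the difference was -0.43 ± 0.13 (adjusted p = 0.299). The largest positive differences were 0.22 ± 0.12 for Mrps18c, 0.17 ± 0.14 for Mrpl44, which is built on an RNase III fold, and 0.16 ± 0.14 for Mrpl1, with adjusted p from 0.606 to 0.789.

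In Rassf1a-/- Sav1+/- against wild-type livers, 60 of the 77 genes had a negative difference, against 41.3% of all genes, and 1 of them, Mrpl12, fell beyond the threshold. The median was -0.18, against 0.05 over all genes. The call rate was 0.821% of all genes in either direction and 0.487% for lower. A single call in 77 genes is not read as a result about the list. At an unadjusted p under 0.05, 23 members were lower and 0 higher, against 6.44% and 7.19% of all genes. Without overlap, 18 members were lower and 1, Mrpl10, was higher, against 4.49% and 6.28% of all genes. The 18 were Mrpl2, Mrpl12, Mrpl14, Mrpl15, Mrpl17, Mrpl24, Mrpl28, Mrpl33, Mrpl34, Mrpl41, Mrpl51, Mrpl54, Mrpl55, Mrpl57, Mrps10, Mrps16, Mrps24 and Mrps34.

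Mrpl12 (probe set 10383389) is the counterpart of bacterial L7/L12, the flexible stalk protein that recruits translation factors, and it is also known to bind the mitochondrial RNA polymerase. It measured 10.27, 10.05, 10.49 and 10.33 in Rassf1a-/- Sav1+/- livers, against 11.06, 11.08, 11.10 and 10.88 in wild-type livers. The 2 groups lie well apart, and the single-mutant arrays spread over 10.59 to 11.20. The fitted difference was -0.74 ± 0.14, a level 1.67-fold lower, with an adjusted p of 0.0163 (limma). Mrpl12 was not called in Rassf1a-/- livers (-0.12 ± 0.14, adjusted p = 0.764) or in Sav1+/- livers (-0.12 ± 0.14, adjusted p = 0.857), and the interaction that tests for a departure from additivity was -0.50 ± 0.20 (adjusted p = 0.458). Over 26 alternative settings the difference ran from -0.81 to -0.62 and the call held in 19. The adjusted p was 0.0555 or 0.0810 without Rassf1a-/- Sav1+/- replicate 1 or 2, 0.0565, 0.0583 or 0.0590 without wild-type replicate 1, 2 or 3, 0.0646 with the Y-linked signal of each array in the model, and 0.338 without the 5 Y-high arrays described below.

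Mrpl10, the large subunit protein on which Mrpl12 sits, was not lower. It measured 11.60, 11.66, 11.59 and 11.53 in Rassf1a-/- Sav1+/- livers, against 11.42, 11.37, 11.33 and 11.46 in wild-type livers. The groups do not overlap and the double genotype is the higher, by 0.20 ± 0.11 (adjusted p = 0.441). The Mrpl10 mean was also 11.60 in Rassf1a-/- livers, so the higher level is not particular to the double genotype. Mrpl28 measured 9.65, 9.30, 9.64 and 9.58 in Rassf1a-/- Sav1+/- livers, against 10.06, 10.27, 10.07 and 10.02 in wild-type livers. All 4 double-genotype values lie below all wild-type values, with a difference of -0.56 ± 0.14 (adjusted p = 0.0714). Mrps10, a protein of the small subunit head, measured 8.30, 8.60, 8.56 and 8.53 in Rassf1a-/- Sav1+/- livers, against 9.09, 9.10, 9.06 and 8.89 in wild-type livers. Its groups do not overlap, and the difference of -0.54 ± 0.12 missed the threshold (adjusted p = 0.0525). Mrps28 differed by -0.56 ± 0.20 (adjusted p = 0.210) with overlapping groups. Of the 17 members with a positive difference, Mrps27 (0.24 ± 0.17, adjusted p = 0.563), Mrpl10 and Mrps18b (0.18 ± 0.15, adjusted p = 0.666) were the 3 highest.

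**Figure D3:**
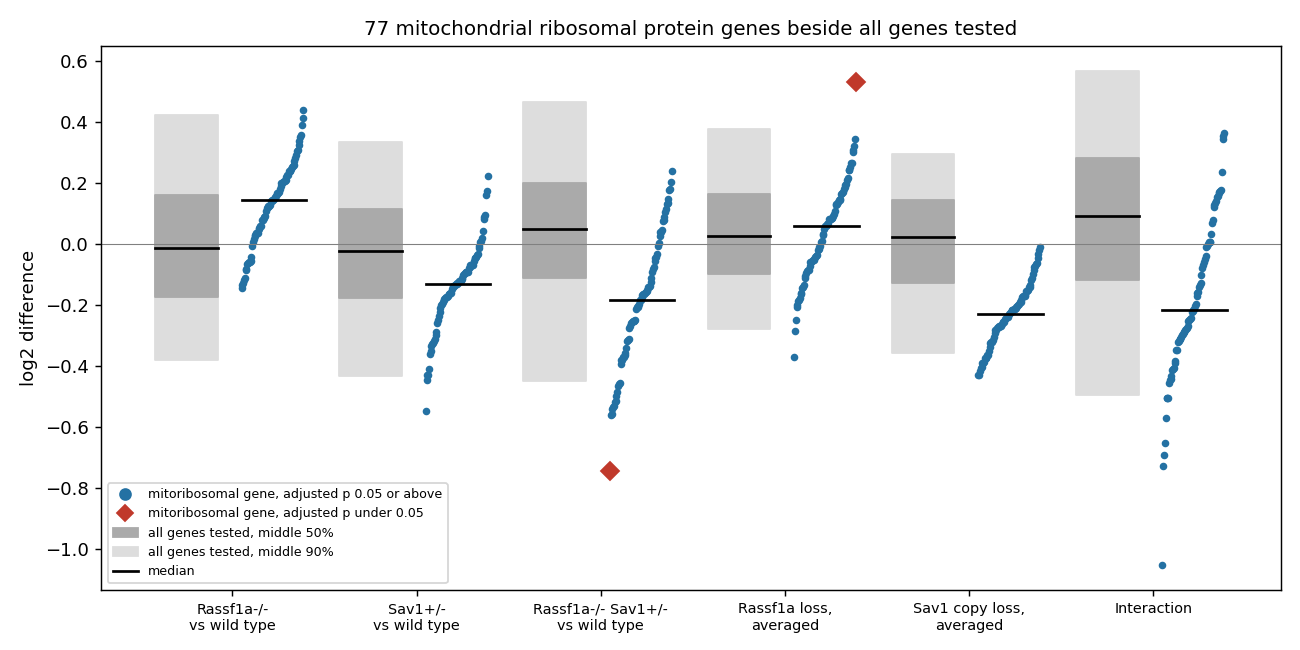
Log2 difference of each of the 77 genes (points, sorted) in 6 comparisons, beside the middle 50% and 90% of all 13152 genes tested (grey bars) and the medians (black lines). The 2 red diamonds are Mrpl12 in the double genotype and Mrps27 for averaged Rassf1a loss, the calls at an adjusted p under 0.05. For averaged Sav1 copy loss all points lie below 0.

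Rassf1a loss was also averaged over both Sav1 states, as the mean of Rassf1a-/- and Rassf1a-/- Sav1+/- minus the mean of Sav1+/- and wild type. Here 44 of the 77 genes had a positive difference, against 55.1% of all genes, with a median of 0.06 against 0.03 over all genes. Mrps27 was the 1 member called, as higher, against 2.23% of all genes called in either direction and 1.76% called higher. At an unadjusted p under 0.05, 14 members were higher and 2 lower, against 11.7% and 3.6% of all genes. A count of 1 in 77 is near the share of all genes called.

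Mrps27 (probe set 10406865) is a small subunit protein of animal mitochondria with pentatricopeptide repeats, a fold that binds RNA. It measured 9.99, 10.17, 10.03 and 10.32 in Rassf1a-/- livers and 9.73, 10.08, 9.92 and 10.09 in Rassf1a-/- Sav1+/- livers. It measured 9.52, 8.88, 9.33 and 9.48 in Sav1+/- livers and 9.61, 10.07, 9.44 and 9.73 in wild-type livers. Livers without Rassf1a are the higher within each Sav1 state, although wild-type replicate 2 lies among them. The averaged difference was 0.53 ± 0.12, a level 1.45-fold higher, with an adjusted p of 0.0205 (limma). Over 25 alternative settings it ran from 0.46 to 0.60 and the call held in 22. It was lost without Rassf1a-/- replicate 4 (adjusted p = 0.0554) or wild-type replicate 3 (adjusted p = 0.0555), and when the 5 Y-high arrays described below were dropped (adjusted p = 0.141).

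Other members were not called for averaged Rassf1a loss. Mrpl12 differed by -0.37 ± 0.10 (adjusted p = 0.0626) and Mrps10 by -0.29 ± 0.09 (adjusted p = 0.102), both through the double genotype. Mrpl38, a central protuberance protein, measured 11.26, 11.26, 11.20 and 11.29 in Rassf1a-/- livers and 11.09, 11.21, 10.90 and 11.28 in Rassf1a-/- Sav1+/- livers. It measured 10.56, 10.56, 10.82 and 10.93 in Sav1+/- livers and 11.03, 11.04, 11.15 and 10.83 in wild-type livers. The Sav1+/- arrays hold its 2 lowest values, and the averaged difference was 0.32 ± 0.09 (adjusted p = 0.0686). Mrps12 differed by 0.34 ± 0.12 (adjusted p = 0.134) and Mrpl20, a large subunit protein with a bacterial homologue, by -0.25 ± 0.13 (adjusted p = 0.363). A list of 4 circadian clock genes was chosen with earlier results of these data known and is not the whole clock. All 4 were called for averaged Rassf1a loss, against 2.23% of all genes, a count that the choice of genes may have set. Arntl, an activator of the clock, rose by 3.19 ± 0.24 (adjusted p = 1.6e-06), while its targets Ciart, Dbp and Per3 differed by -3.90 ± 0.36, -2.67 ± 0.33 and -2.27 ± 0.23, with adjusted p from 1.04e-05 to 0.000139. The part of the clock in the mitoribosomal values was not tested.

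Loss of a Sav1 copy, averaged over both Rassf1a states, was the comparison in which the 77 genes lay most to one side. It is the mean of Sav1+/- and Rassf1a-/- Sav1+/- minus the mean of Rassf1a-/- and wild type. All 77 differences were below 0, against 46% of all genes, with a range of -0.43 to -0.01 and a median of -0.23, against 0.02 over all genes. No member was called, against 0.0228% of all genes, and the smallest adjusted p among them was 0.119 (limma). At an unadjusted p under 0.05, 42 members were lower and 0 higher, against 10.4% and 4.43% of all genes. The shift was similar under both names, with medians of -0.23 for the 48 Mrpl and -0.24 for the 29 Mrps genes. The names do not follow the subunit throughout, as given for Mrps36 above and for Mrps18a and Mrps30 below.

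Mrpl45 (probe set 10380751), the large subunit protein beside the exit tunnel that holds the ribosome at the inner membrane, had the smallest p. It measured 8.25, 8.61, 8.19 and 8.22 in Sav1+/- livers and 8.23, 7.88, 8.18 and 8.69 in Rassf1a-/- Sav1+/- livers. It measured 8.73, 8.67, 8.86 and 8.87 in Rassf1a-/- livers and 8.65, 8.71, 8.67 and 8.52 in wild-type livers. Of the 8 arrays with 1 Sav1 copy, 1 of each genotype reaches the values of the other arrays and the rest lie below them. The averaged difference was -0.43 ± 0.11 (adjusted p = 0.119). Mrpl46 also differed by -0.43, with the larger error of 0.17 (adjusted p = 0.253), and Mrps28 by -0.42 ± 0.14 (adjusted p = 0.180). Nearest to 0 were Mrpl21 (-0.03 ± 0.09), Mrpl44 (-0.02 ± 0.10) and Mrps31 (-0.01 ± 0.10), with adjusted p from 0.863 to 0.965, and their signs are not settled by these data.

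Sav1 itself fell in this comparison, with a difference of -0.93 ± 0.12 (adjusted p = 0.0113). The Rassf1 probe set differed by -0.10 ± 0.14 with averaged Rassf1a loss and does not check that label, since the sources used here do not say which exons it or the deletion covers. The Y-linked genes were high on 5 arrays, namely 1 Rassf1a-/-, 2 Sav1+/-, 2 Rassf1a-/- Sav1+/- and no wild-type array. Of these 5, 4 carry 1 Sav1 copy. Xist, the RNA of X inactivation, ranged from 2.12 to 4.31 on these 5 arrays and from 10.34 to 11.47 on all others. By these genes the 5 arrays read as male and the others, among them every wild-type array, as female. Sex is thus in part confounded with genotype. Without these 5 Y-high arrays the median for averaged Sav1 copy loss was -0.18, against -0.0024 over all genes. Of the 77 genes, 72 were below 0 and 9 were lower at an unadjusted p under 0.05. With the mean Y-linked signal in the model the median was -0.23, against 0.02 over all genes, with 76 below 0. No share over all genes stands beside these counts, so they are not read against the other genes. In Rassf1a-/- Sav1+/- livers the member mean was 9.48 and 9.58 on the 2 Y-high arrays and 9.62 and 9.78 on the others. In Sav1+/- livers it was 9.62 and 9.77 on the high arrays and 9.57 and 9.70 on the others.

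Markers of other liver cells were set beside this shift. The mean over 8 hepatocyte genes ran from 13.3 to 13.4 in Rassf1a-/-, 13.2 to 13.5 in Sav1+/-, 13.4 to 13.6 in Rassf1a-/- Sav1+/- and 13.4 to 13.5 in wild-type livers, so the labelled tissue shows its defining genes in every array. The mean over 8 Kupffer cell and macrophage genes ran from 9.44 to 10.9 in Sav1+/- and 9.74 to 10.6 in Rassf1a-/- Sav1+/- livers, against 9.07 to 9.96 in Rassf1a-/- and 9.35 to 10.3 in wild-type livers. For averaged Sav1 copy loss all 8 had a positive difference, with a median of 0.37, and none passed the test. None of the 8 was at 0. The mean over 6 endothelial genes ran from 9.46 to 10.03 in Sav1+/- and 9.81 to 10.17 in Rassf1a-/- Sav1+/- livers, against 9.5 to 10.17 in Rassf1a-/- and 9.44 to 9.79 in wild-type livers. Of these, 5 of 6 had a positive difference for averaged Sav1 copy loss, with a median of 0.21. In the double genotype against wild type 5 of 6 were positive, with a median of 0.31, and 2 were higher without overlap. Over all genes the median for averaged Sav1 copy loss was 0.02, with 46% below 0. In the double genotype the all-gene median was 0.05, with 41.3% below 0 and 6.28% higher without overlap. Of 6 stellate cell and fibroblast genes, 4 had a positive difference for averaged Sav1 copy loss, with a median of 0.08. The 2 of 6 lymphocyte genes that passed the filter and the 1 of 5 cholangiocyte genes that did were also above 0, with medians of 0.21 and 0.12. None of these genes was called. The part of these cell types in the mitoribosomal shift was not tested.

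The interaction compares the Rassf1a difference in Sav1+/- livers with that in livers with both Sav1 copies. Its median over the 77 genes was -0.22, against 0.09 over all genes, and 57 were below 0, against 37.6% of all genes. No member was called, nor any other gene (0%), and 10 members were lower and 1 higher at an unadjusted p under 0.05, against 3.63% and 5.76% of all genes. Over 52 cytosolic ribosomal protein genes the median interaction was -0.35, with 51 below 0 and 18 lower at that p. Over 35 complex I genes it was -0.30, with 27 below 0 and 11 lower. No difference between these lists was tested. Mrps18c measured 9.51, 9.22, 9.32 and 9.45 in Rassf1a-/- Sav1+/- livers and 9.82, 9.89, 9.89 and 9.92 in Rassf1a-/- livers. It measured 9.90, 9.74, 9.80 and 10.07 in Sav1+/- livers and 9.50, 9.73, 9.62 and 9.77 in wild-type livers. Both single mutants lie higher than most wild-type arrays and the double genotype lower, and the interaction was -0.73 ± 0.16 (adjusted p = 0.316). Mrpl33, a small large-subunit protein near the tRNA exit site, measured 10.22, 10.04, 10.26 and 10.24 in Rassf1a-/- Sav1+/- livers, below all other arrays, and its interaction was -0.65 ± 0.20 (adjusted p = 0.369). Mrpl46 had the lowest interaction of the members, at -1.05 ± 0.35 (adjusted p = 0.387), and is given here after its value was seen. Without the 5 Y-high arrays the median interaction was -0.02.

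**Figure D4:**
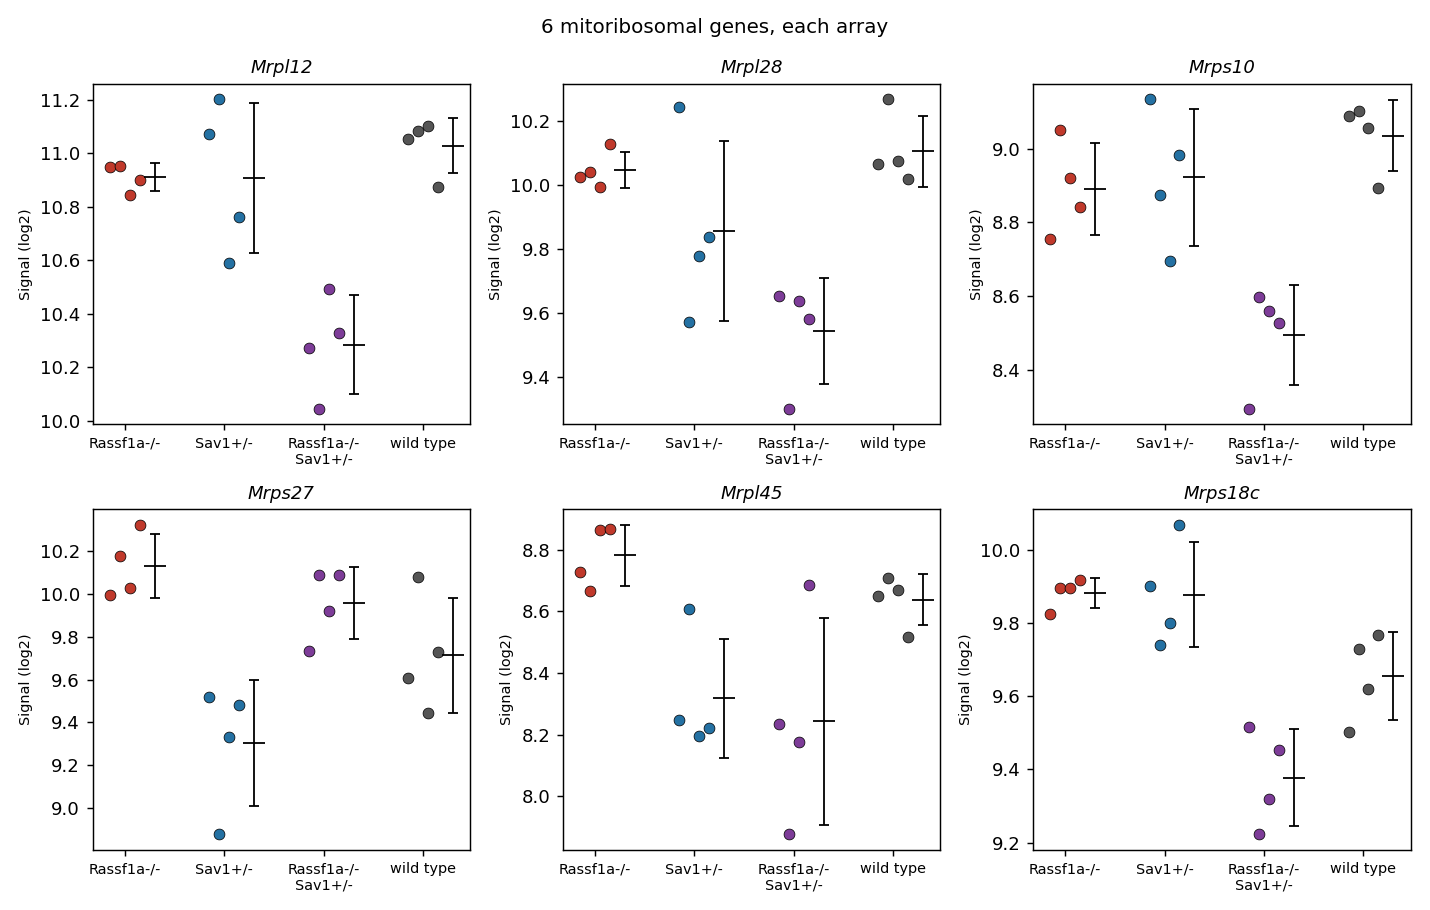
Log2 signal of 6 mitoribosomal genes on each array, by genotype, with the mean ± SD of 4 arrays as bars, on axes that do not start at 0. Mrpl12, Mrpl28 and Mrps10 are lowest in Rassf1a-/- Sav1+/- livers, Mrps27 is lowest in Sav1+/- livers, Mrpl45 is low on 6 of the 8 arrays with 1 Sav1 copy, and Mrps18c is low in the double genotype alone.

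Related members did not always share a pattern. Mrps18a, Mrps18b and Mrps18c are paralogs of bacterial S18, of which Mrps18a sits in the large subunit. Against wild type, Mrps18a differed by 0.18 ± 0.12 for Rassf1a-/-, -0.12 ± 0.12 for Sav1+/- and -0.01 ± 0.12 for Rassf1a-/- Sav1+/- livers. Mrps18b differed by 0.17 ± 0.15, -0.16 ± 0.15 and 0.18 ± 0.15, and Mrps18c by 0.23 ± 0.12, 0.22 ± 0.12 and -0.28 ± 0.12 in the same order. None of these 9 differences was called, and differences between the paralogs were not tested. Mrpl37 and Mrps30 are related proteins that both sit in the large subunit. Mrpl37 differed by 0.05 ± 0.12, -0.21 ± 0.12 and -0.12 ± 0.12, and Mrps30 by 0.14 ± 0.20, -0.11 ± 0.20 and 0.03 ± 0.20, none of them called.

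The genes were also divided by the origin of the protein and by promoter motif, and the medians are given as a description with no test. For averaged Sav1 copy loss the median was -0.24 over the 45 members with a bacterial homologue and -0.22 over the 32 without, and for Rassf1a-/- against wild type it was 0.14 in both. In the double genotype the medians were -0.16 and -0.19. Members with an NRF1 motif had a median of -0.23 for averaged Sav1 copy loss (13 genes), against -0.22 for those without (55 genes). For the ETS motif these medians were -0.21 and -0.24, and for YY1 -0.23 and -0.23. Wider gaps stood in other comparisons. In Rassf1a-/- against wild-type livers the 13 genes with an NRF1 motif had a median of 0.04 and the 55 without had 0.16, and for averaged Rassf1a loss these medians were -0.04 and 0.07. For the interaction the 8 genes with a YY1 motif had a median of -0.07 and the 60 without had -0.23.

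Of the members, 8 had a second probe set for the same gene, which gives a repeat reading on the same arrays. For averaged Sav1 copy loss the 2 readings had the same sign in 8 of 8 genes and differed by a median of 0.03, with the widest gap, 0.23, in Mrpl47. In Rassf1a-/- against wild-type livers they had the same sign in 7 of 8, the exception being Mrpl27 with 0.06 and -0.02. Neither Mrpl12 nor Mrps27 had a second reading. The 5 members whose mean fell below the highest filter level among the arrays, Mrpl22, Mrpl44, Mrps9, Mrps25 and Mrps26, rest on dim probe sets.

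The proteins that work with the mitochondrial ribosome were read from lists of known function. Among 4 mitoribosomal proteins with other names, Chchd1 showed the largest difference. It measured 9.08, 8.58, 8.85 and 9.08 in Rassf1a-/- Sav1+/- livers, against 9.53, 9.97, 9.11 and 9.57 in wild-type livers. The groups do not overlap, although wild-type replicate 3 comes close, and the difference was -0.65 ± 0.19 (adjusted p = 0.120). Dap3, a GTP-binding protein of the small subunit, differed from wild type by 0.16 for Rassf1a-/-, by -0.03 for Sav1+/- and by 0.09 for Rassf1a-/- Sav1+/- livers. Ptcd3, a pentatricopeptide protein of the small subunit, differed by 0.43, -0.09 and -0.0011 in the same order, and Gadd45gip1 by 0.04, -0.17 and -0.08.

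Mitochondrial translation factors and tRNA ligases had positive medians in Rassf1a-/- livers and negative ones in Sav1+/- livers, and medians near 0 in the double genotype. For the 13 measured of 16 translation factors the medians were 0.15 for Rassf1a-/-, -0.10 for Sav1+/- and -0.03 for Rassf1a-/- Sav1+/- livers, each against wild type. For the 16 measured of 20 tRNA ligases they were 0.21, -0.18 and 0.03. None of either list was called in any comparison, and the gap to the ribosomal proteins was not tested. Tufm, the elongation factor that brings charged tRNA to the ribosome, measured 11.23, 11.04, 11.19 and 11.18 in Rassf1a-/- and 11.09, 11.23, 11.18 and 11.39 in Rassf1a-/- Sav1+/- livers. It measured 10.73, 10.65, 10.76 and 10.86 in Sav1+/- and 11.06, 11.07, 10.81 and 11.09 in wild-type livers. Sav1+/- livers hold its lowest values, and averaged Rassf1a loss gave 0.31 ± 0.08 (adjusted p = 0.0521). Hars2, the mitochondrial histidine ligase, gave 0.40 ± 0.10 (adjusted p = 0.0539).

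For 27 genes of mitoribosome assembly the medians against wild type were 0.04 for Rassf1a-/-, -0.28 for Sav1+/- and -0.12 for Rassf1a-/- Sav1+/- livers, and for averaged Sav1 copy loss -0.20, with none called. Ybey, an endonuclease needed for the ribosomal RNA, measured 7.58, 7.5, 7.48 and 7.80 in Sav1+/- and 7.44, 7.5, 7.54 and 7.78 in Rassf1a-/- Sav1+/- livers. It measured 7.99, 8.33, 8.0 and 7.93 in Rassf1a-/- and 8.03, 7.95, 8.05 and 7.84 in wild-type livers. The 8 arrays with 1 Sav1 copy all lie below the 8 with both, by a narrow gap, and the averaged difference was -0.44 ± 0.09 (adjusted p = 0.0773). Rpusd4, a pseudouridine synthase of the ribosomal RNA, differed by -0.59 ± 0.13 with averaged Sav1 copy loss (adjusted p = 0.0834) and by 0.50 ± 0.13 with averaged Rassf1a loss (adjusted p = 0.0562). The 14 measured of 17 genes of mitochondrial transcription and RNA processing had medians of 0.12, -0.05 and -0.0015 in the same order as above, with none called.

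Of 10 regulators of nuclear genes for mitochondrial proteins, none was called in any comparison. Gabpb1, the activating subunit of the ETS factor GABP, measured 8.73, 8.90, 8.20 and 8.46 in Rassf1a-/- livers, against 7.97, 7.87, 7.91 and 7.91 in wild-type livers. The groups do not overlap, and the difference was 0.66 ± 0.16 (adjusted p = 0.0761). Esrra, a nuclear receptor of mitochondrial genes, measured 7.04, 7.12, 7.21 and 7.67 in Rassf1a-/- Sav1+/- livers, against 7.94, 7.86, 8.08 and 7.91 in wild-type livers. These groups do not overlap either, and the difference was -0.69 ± 0.17 (adjusted p = 0.0740). Esrra was also below all wild-type values in Rassf1a-/- livers, at 7.71, 7.54, 7.65 and 7.40. Of the 10 regulators in Rassf1a-/- livers, 7 were above and 3 below 0. Without overlap 1 was higher and 1 lower, against 6.55% and 4.32% of all genes. In the double genotype Gabpb1 ranged from 8.04 to 8.52 and Yy1, the gene for YY1, from 10.40 to 10.61. Wild-type livers had 7.87 to 7.97 and 9.90 to 10.23, so both were higher without overlap. Of the 10 regulators there, 5 were above and 5 below 0, with a median of 0.08. Without overlap 2 were higher and 1 lower, against 6.28% and 4.49% of all genes. Nrf1, the gene for NRF1, ranged from 7.77 to 8.29 in Rassf1a-/-, 7.63 to 8.01 in Sav1+/-, 7.62 to 7.99 in Rassf1a-/- Sav1+/- and 7.75 to 8.21 in wild-type livers, which overlap throughout.

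**Figure D5:**
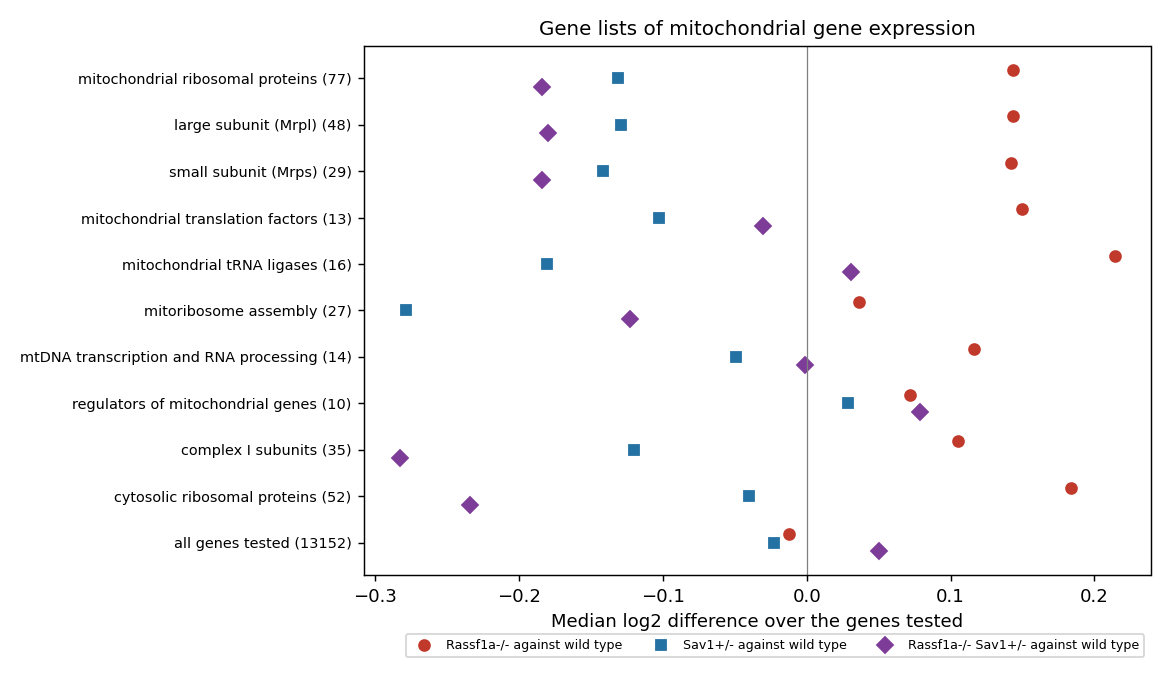
Median log2 difference against wild type over the tested genes of each list (number in brackets), for Rassf1a-/-, Sav1+/- and Rassf1a-/- Sav1+/- livers. Ribosomal proteins of mitochondria and cytosol and complex I subunits have medians of -0.28 to -0.18 in the double genotype. Translation factors, tRNA ligases and transcription genes lie at -0.03 to 0.03, assembly genes at -0.12 and regulators at 0.08. Differences between the lists were not tested.

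Cytosolic ribosomal proteins and subunits of respiratory complex I, the proton pump that some products of the mitochondrial ribosome enter, were set beside the mitoribosomal genes, whose medians against wild type were 0.14 for Rassf1a-/-, -0.13 for Sav1+/- and -0.18 for Rassf1a-/- Sav1+/- livers. Over 52 cytosolic ribosomal protein genes the medians were 0.18 for Rassf1a-/-, -0.04 for Sav1+/- and -0.23 for Rassf1a-/- Sav1+/- livers against wild type. Over 35 complex I genes they were 0.11, -0.12 and -0.28. In Sav1+/- livers 32 of the 52 cytosolic genes were below 0 and 0 were lower at an unadjusted p under 0.05. Of the 77 mitoribosomal genes 67 were below 0 and 9 were lower at that p. Other lists also lay low there, with 26 of 35 complex I genes below 0 and 5 lower at that p. For the 27 assembly genes these counts were 22 and 7, and for the 13 translation factors 10 and 4. For the 16 tRNA ligases they were 13 and 0, and for the 14 transcription and RNA processing genes 8 and 1. Over all genes 54.1% were below 0 and 7.47% lower at that p. In Rassf1a-/- Sav1+/- livers 49 of 52 cytosolic, 30 of 35 complex I and 60 of 77 mitoribosomal genes were below 0. Of all genes 41.3% were. At that p 17, 18 and 23 were lower there, against 6.44% of all genes. In Rassf1a-/- livers 50, 30 and 63 of these genes were above 0, against 48.3% of all genes. For averaged Sav1 copy loss the medians were -0.22 for cytosolic ribosomal protein and -0.23 for complex I genes, with 51 of 52 and 34 of 35 below 0. These comparisons share the same arrays, and no difference between the lists was tested. Nothing in the averaged Sav1 shift or in the interaction is thus shown to be particular to the mitochondrial ribosome. Of the 52 none was called in any comparison. Of the 35, 1 was called lower in Rassf1a-/- Sav1+/- livers, against 0.487% of all genes. A single call is not read as a result about that list.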

How the data were processed

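Per the submitters' processing notes, the authors made the deposited values, log2 signals per probe set and array, with Affymetrix Expression Console. The sources used here do not give its version, background correction, summarisation or normalization. Arrays were grouped by the labelled genotype, and replicates were numbered in deposited order. Gene names came from the platform annotation, updated by gene ID to RefSeq (GRCm38.p6). Of 35556 probe sets, 21789 name 1 gene and were used. The other probe sets were left out, among them 1 that names an Mrp gene beside another gene.

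The filter kept probe sets at or above the array's 40th percentile (7.16 to 7.44) on 4 arrays or more. The 13152 genes were fitted in limma 3.58.1 (lmFit and eBayes, R 4.3.3), one mean per genotype, which leaves 12 residual degrees of freedom. The tests were two-sided, with Benjamini-Hochberg adjustment within each of 6 comparisons. The fit was tested on simulated data. Errors are SE for differences and SD for means. The number of arrays limits the precision.

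Named are called members, the 3 highest and 3 lowest differences in each comparison but the interaction, the 2 smallest interaction p-values, dim members, paralogs and up to 4 genes per list with the smallest p. Mrpl1, Mrps10 and Mrpl10 were also given by array, and Nrf1 and the interaction of Mrpl46 were added, after their values were seen. The members and lists were chosen with earlier results of these data known. Alternatives were no filter, a 60th percentile filter, averaging a gene's probe sets, quantile normalization, median centring, only the genotypes compared, array weights, a trended robust prior, Y-linked signal in the model, dropping the 5 Y-high arrays and dropping each array in turn.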

Additional observations from a re-analysis of the deposited data

Results flagged for a closer look

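In groups of 4 arrays, an array was singled out where its gap to the nearest other took up nearly the whole range of its group. Of 96 such group tests over the named members, 2 met this, and chance flags about 1 in 20 groups. Mrpl33 in Sav1+/- replicate 1 measured 10.88, while the other 3 Sav1+/- arrays lay between 10.64 and 10.65. Mrpl45 in Sav1+/- replicate 2 measured 8.61, while the other 3 lay between 8.19 and 8.25. Both arrays lie above the rest of their group.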

How the results depend on the processing

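No paired analysis was possible because the arrays carry no replicate number in their labels. Over 25 or 26 alternatives per comparison, the median difference of the 77 genes kept its sign in all 6 comparisons. It ran from 0.11 to 0.21 for Rassf1a-/-, -0.19 to -0.10 for Sav1+/- and -0.25 to -0.10 for Rassf1a-/- Sav1+/- against wild type. For averaged Rassf1a loss it ran from 0.02 to 0.11, for averaged Sav1 copy loss from -0.30 to -0.18 and for the interaction from -0.30 to -0.016, the last value without the 5 Y-high arrays. The Sav1+/- median of -0.10 came without Sav1+/- replicate 2, with 58 members below 0 and a median of -0.06 over all genes. Counts of members called were less stable. With array weights, 1 member was called in Rassf1a-/-, 17 in Rassf1a-/- Sav1+/-, 6 for averaged Rassf1a loss and 22 for averaged Sav1 copy loss. Over all genes, 898, 1231, 800 and 1517 were called there, and the 2 lowest weights were those of Sav1+/- replicates 1 and 2 (0.279 and 0.276). In Rassf1a-/- Sav1+/- livers the count was 3 with the 60th percentile filter, 2 with quantile normalization, and 0 with the Y-linked covariate or without the Y-high arrays. Over all genes 176 of 8828, 165, 61 and 6 of 13152 were called there, against 108. For averaged Rassf1a loss it was 4 with the 60th percentile filter, 2 with quantile normalization, 3 with a trended robust prior and 0 without the Y-high arrays. Over all genes 444 of 8828, 353, 398 and 80 of 13152 were called there, against 293, and the 60th percentile filter kept 69 members. Leaving out each array in turn gave 0 to 3 calls in Rassf1a-/- Sav1+/-, 0 to 2 for averaged Rassf1a loss and 0 to 1 for averaged Sav1 copy loss. In Rassf1a-/- Sav1+/- livers 3 members were among 209 genes called without Sav1+/- replicate 1, and 0 among 40 without Rassf1a-/- Sav1+/- replicate 2. For averaged Rassf1a loss 2 members were among 249 genes called without Sav1+/- replicate 3, and 0 among 197 without Rassf1a-/- replicate 4. For averaged Sav1 copy loss 1 member was among 50 genes called without Sav1+/- replicate 1. Under averaged Sav1 copy loss these settings left 74 to 77 genes below 0, with 32 to 50 at an unadjusted p under 0.05. In Rassf1a-/- Sav1+/- livers the count at an unadjusted p under 0.05 was 13 to 28, and 4 without the Y-high arrays. The count of 13 was reached without Rassf1a-/- Sav1+/- replicate 2. No share over all genes stands beside these counts at that p, or beside the counts below or above 0 in these settings. Under averaged Sav1 copy loss 5 of the 77 genes lay above 0 without the Y-high arrays and 1 each with array weights and with the Y-linked covariate. Of the members named there, Mrpl21, Mrpl44 and Mrps31 turned sign under some setting. Without the Y-high arrays Mrpl44 was at 0.074 and Mrps31 at 0.048, and with the Y-linked covariate Mrps31 was at 0.0072. Leaving out each array gave -0.062 to 0.0095 for Mrpl21, -0.054 to 0.045 for Mrpl44 and -0.073 to 0.044 for Mrps31. The causes were not tested. Dim probe sets and 4 arrays a genotype limit what could be called.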
